A study of Arabidopsis thaliana with 12 samples.

Results

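WRKY53 (AT4G23810), SAG101 (AT5G14930), GAMMA-VPE (AT4G32940) and SAG29 (AT5G13170) are 4 genes linked to leaf senescence and vacuolar cell death, and each was measured by 1 probe set that is listed with exactly 1 gene. They were picked with earlier results of these data known, the direction of SAG29 among them, and are 4 of 13356 genes that have such a probe set. All 4 were among the 7037 of these genes whose signals were high enough to test, in a fit over 13263 probe sets. The arrays were ATH1 arrays of Arabidopsis thaliana rosette leaves, 12 in all, and every array stands for a pool of 40 plants. 4 groups of 3 arrays were compared. They were SPH1 RNAi plants at growth stage 1.14, Col-0 plants at stage 1.14, SPH1 RNAi plants at stage 1.05 and Col-0 plants at stage 1.05, on a scale that counts rosette leaves. SPH1 RNAi plants are of the Col-0 ecotype and carry an RNA interference construct directed at SPH1, which the series title calls a signalling protein. The promoter of the construct and the number of independent lines are not stated in these sources. Compost-grown plants of all groups had a photoperiod of 16 h, 80% humidity and 20 °C in a greenhouse, with the same treatment, which the labels call Intersept, and after cold stratification. The labels do not say whether the replicates were grown separately, so p-values measure only the spread between these arrays.

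Leaf senescence is the ordered last phase of a leaf, in which chloroplasts are taken apart and their nitrogen and carbon are sent to growing organs. WRKY transcription factors are among its early regulators, and WRKY53 promotes its onset. The vacuole holds the proteases that carry out much of the breakdown, and autophagy delivers cell contents to it. GAMMA-VPE is a vacuolar processing enzyme, a cysteine protease that matures other vacuolar proteins and is linked to cell death through the vacuole. SAG101 is a lipase-like protein that works with EDS1 in immune signalling. SAG29 is SWEET15, a sugar transporter first described as a transcript of senescing leaves.

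The lowest correlation between 2 arrays of a group was 0.894, for replicates 1 and 2 of SPH1 RNAi at stage 1.14, against 0.938 or more in the other groups. Replicates 2 and 3 of that group are titled as repeats, and replicate 3 lacks the RNAi tag in its title and was placed by its source name. Results of the 4 genes that rest on this group are given with and without each of its replicates in turn. Scanner background was 68.54 to 79.46 in SPH1 RNAi and 86.4 to 118.93 in Col-0 at stage 1.05, and 75.5 to 136.5 in SPH1 RNAi and 71.31 to 100.89 in Col-0 at stage 1.14. As a sign of RNA integrity, the 3′ actin control was set over the 5′ one (log2 ratio of signals plus 16), which gave 1.43 to 2.28 in SPH1 RNAi and 1.58 to 2.05 in Col-0 at stage 1.14. At stage 1.05 the ratio was 2.14 to 3.31 in SPH1 RNAi and 2.30 to 2.95 in Col-0. The same ratio for GAPDH was 0.46 to 1.3 in SPH1 RNAi and 0.44 to 0.61 in Col-0 at stage 1.14, and 0.9 to 1.96 in SPH1 RNAi and 0.45 to 1.36 in Col-0 at stage 1.05. The part of background and RNA integrity in the results below was not tested. The leaf marker RCA, rubisco activase, had signals between 2797.8 and 5230 on all 12 arrays. Of 12 genes in the leaf marker list it was the only one with a probe set listed with exactly 1 gene. No probe set is listed here for SPH1 itself, so its level was not checked.

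WRKY53 was higher at stage 1.14 than at 1.05 in both genotypes, and higher in SPH1 RNAi than in Col-0 at stage 1.05. Its signal was 194.5, 99.1 and 149.4 in SPH1 RNAi and 73.3, 130.1 and 76.5 in Col-0 at stage 1.14 (replicates 1 to 3), with means of 147.7 ± 47.7 and 93.3 ± 31.9 (SD, n = 3 each). At stage 1.05 it was 73.7, 61.9 and 46.0 in SPH1 RNAi and 21.0, 19.2 and 14 in Col-0. All 3 young SPH1 RNAi arrays lay above all 3 young Col-0 arrays, while the genotypes overlapped at stage 1.14. Genotypes did not overlap, in either direction, in 27.6% of all tested probe sets at stage 1.05. The young Col-0 signals lay near the offset of 16, and 1 of them was under it. The size of changes against that group therefore depends on the offset. Between genotypes at stage 1.05 the gene rose 2.23-fold on the scale of signal plus 16 (log2 change 1.16 ± 0.24 SE, limma adjusted p = 0.0134). The mean signals were 60.5 ± 13.9 in SPH1 RNAi and 18.1 ± 3.64 in Col-0 (SD, n = 3 each), a plain ratio of 3.35. At stage 1.14 the log2 change was 0.58 (95% interval 0.057 to 1.097, limma adjusted p = 0.168). It was 0.37, 0.81 and 0.55 without SPH1 RNAi replicates 1, 2 and 3 in turn.

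With stage, WRKY53 rose 2.1-fold in SPH1 RNAi (log2 change 1.07 ± 0.24 SE, limma adjusted p = 0.0178) and 3.14-fold in Col-0 (1.65 ± 0.24, adjusted p = 0.000179). The SPH1 RNAi value was 0.87, 1.30 and 1.04 without replicates 1, 2 and 3 of stage 1.14 in turn, and it passed in each case. The 2 stage changes were not shown to differ (interaction -0.58, 95% interval -1.32 to 0.16, limma adjusted p = 0.381). The interaction was -0.78, -0.35 and -0.61 without replicates 1, 2 and 3 of SPH1 RNAi at stage 1.14 in turn. In order of mean signal, SPH1 RNAi at 1.14 stood first, followed by Col-0 at 1.14, SPH1 RNAi at 1.05 and Col-0 at 1.05. The first overlapped the second, the second and the third met at 73.3 and 73.7, and Col-0 at 1.05 lay below all other arrays. The genotype call at stage 1.05 was lost without SPH1 RNAi replicate 2 or Col-0 replicate 3 of that stage, with log2 changes of 1.14 and 1.07. With an offset of 64 it was lost as well, at 0.597.

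SAG101 rose with stage in Col-0, and its genotype difference at stage 1.05 did not pass. In SPH1 RNAi its signal was 66.0, 66.6 and 75.6 at stage 1.14, and in Col-0 at that stage it was 59.7, 61.6 and 58.5. At stage 1.05 the values were 69.1, 53.0 and 27.9 in SPH1 RNAi, against 34.4, 11.4 and 14 in Col-0. In young Col-0 leaves 2 of these signals were under the offset of 16, so the size of changes against that group depends on the offset. Mean signals were 69.4 ± 5.38 in SPH1 RNAi and 59.9 ± 1.56 in Col-0 at stage 1.14, and 50 ± 20.8 in SPH1 RNAi and 19.9 ± 12.6 in Col-0 at stage 1.05 (SD, n = 3 each). The older leaves held the gene within a narrow range in both genotypes, while the young SPH1 RNAi arrays ran from 27.9 to 69.1 and overlapped the young Col-0 arrays through SPH1 RNAi replicate 3 and Col-0 replicate 1. In Col-0 the rise with stage was 2.19-fold (log2 change 1.13 ± 0.25 SE, limma adjusted p = 0.00273). In SPH1 RNAi the stage change was 0.42 (95% interval -0.11 to 0.96, limma adjusted p = 0.288). It was 0.451, 0.445 and 0.371 when replicates 1, 2 and 3 of stage 1.14 were left out in turn.

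Between genotypes at stage 1.05, SAG101 had a log2 change of 0.88 (95% interval 0.34 to 1.42, limma adjusted p = 0.0615). It passed without Col-0 replicate 1 (1.15, adjusted p = 0.0128) and without SPH1 RNAi replicate 3 (1.15), and its adjusted p over all alternatives ran from 0.0128 to 0.228. At stage 1.14 the genotypes did not overlap, yet the difference was small, at 0.17 (95% interval -0.37 to 0.71, limma adjusted p = 0.736). It was 0.20, 0.19 and 0.12 when SPH1 RNAi replicates 1, 2 and 3 were left out in turn. The interaction was -0.71 (95% interval -1.47 to 0.05, limma adjusted p = 0.287), with -0.68, -0.69 and -0.76 in the same fits. The groups ran in the order SPH1 RNAi at 1.14, Col-0 at 1.14, SPH1 RNAi at 1.05 and Col-0 at 1.05, and both the second and the third overlapped the group that followed.

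GAMMA-VPE rose with stage in both genotypes, and its genotype difference passed at neither stage. At stage 1.14 its signal was 1621.2, 1622.2 and 1169.5 in SPH1 RNAi and 1683.7, 2844.6 and 1888.8 in Col-0. At stage 1.05 it was 313.9, 423.4 and 491.8 in SPH1 RNAi, against 226.4, 236.4 and 284.4 in Col-0. None of the 4 groups overlapped another, in the order Col-0 at 1.14, SPH1 RNAi at 1.14, SPH1 RNAi at 1.05 and Col-0 at 1.05. Mean signals were 1471 ± 261 in SPH1 RNAi and 2139 ± 620 in Col-0 at stage 1.14, and 410 ± 89.7 in SPH1 RNAi and 249 ± 31.0 in Col-0 at stage 1.05 (SD, n = 3 each). The young SPH1 RNAi leaves thus lay above young Col-0 leaves, and the older ones below older Col-0 leaves. Genotypes did not overlap in 28.2% of all tested probe sets at stage 1.14 and in 27.6% at stage 1.05.

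The rise of GAMMA-VPE with stage was 3.51-fold in SPH1 RNAi (log2 change 1.81 ± 0.22 SE, limma adjusted p = 0.000628) and 7.96-fold in Col-0 (2.99 ± 0.22, adjusted p = 2.67e-06). By p it ranked 58 of 13263 in SPH1 RNAi and 49 of 13263 in Col-0. Without SPH1 RNAi replicates 1, 2 and 3 of stage 1.14 in turn, the SPH1 RNAi change was 1.73, 1.73 and 1.97. The genotype differences did not pass on their own: 0.67 at stage 1.05 (95% interval 0.18 to 1.16, limma adjusted p = 0.113) and -0.51 at stage 1.14 (95% interval -1.002 to -0.027, adjusted p = 0.191). The stage 1.14 value was -0.59, -0.59 and -0.36 without SPH1 RNAi replicates 1, 2 and 3 in turn. Without Col-0 replicate 2, its highest array, it was -0.29. The interaction was -1.18 (95% interval -1.87 to -0.49, limma adjusted p = 0.0648), and it passed without SPH1 RNAi replicate 1 of stage 1.05 (-1.35, adjusted p = 0.0345). Without SPH1 RNAi replicates 1, 2 and 3 of stage 1.14 in turn it was -1.26, -1.26 and -1.03. Over all alternatives its adjusted p lay between 0.0345 and 0.146.

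SAG29 fell with stage in Col-0, where the other 3 genes rose, and it was lower in SPH1 RNAi than in Col-0 at stage 1.05, where the fitted changes of the other 3 were above 0. Its signal was 36.7, 10.2 and 89.7 in SPH1 RNAi at stage 1.14 and 19.6, 11.8 and 9.4 in Col-0 at that stage. At stage 1.05 it was 33.7, 6.3 and 42.8 in SPH1 RNAi and 104.9, 107.1 and 147.2 in Col-0. Mean signals were 45.5 ± 40.5 in SPH1 RNAi and 13.6 ± 5.33 in Col-0 at stage 1.14, and 27.6 ± 19 in SPH1 RNAi and 119.7 ± 23.8 in Col-0 at stage 1.05 (SD, n = 3 each). Young Col-0 leaves thus stood above every other array, and the other 3 groups overlapped one another. SAG29 passed the filter on the mean signal only through young Col-0 leaves, since the mean of the other 9 arrays was 28.91, under the minimum of 32. Its calls against that group are therefore given as values and are not counted as support.

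The signal of SAG29 fell 3.34-fold in SPH1 RNAi against Col-0 at stage 1.05 (log2 change -1.74 ± 0.44 SE, limma adjusted p = 0.0381) and 4.59-fold with stage in Col-0 (-2.20 ± 0.44, adjusted p = 0.00159). At stage 1.14 the genotype difference was 0.85 (95% interval -0.11 to 1.80, limma adjusted p = 0.271), and in SPH1 RNAi the stage change was 0.39 (-0.57 to 1.34, adjusted p = 0.605). Leaving out SPH1 RNAi at stage 1.14 replicate 3, the array without the tag, gave 0.34 and -0.115 for these 2 values. Leaving out replicate 1 gave 0.85 and 0.39, and leaving out replicate 2 gave 1.35 and 0.89. The interaction, which includes young Col-0 leaves, was 2.59 (95% interval 1.24 to 3.93, limma adjusted p = 0.0425), and its call is likewise not counted as support. That call was lost in 10 of the 12 fits without 1 array, with log2 values from 2.08 to 3.09 over the 12. Leaving out the older SPH1 RNAi array without the tag gave 2.08, and leaving out replicates 1 and 2 of its group in turn gave 2.59 and 3.09.

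The call of SAG29 at stage 1.05 also rested on single arrays. SPH1 RNAi replicate 2 of stage 1.05, at 6.3, gave the lowest signal of the gene, and that array also had the highest actin ratio, 3.31. Without it the log2 change was -1.31 (limma adjusted p = 0.175, the highest over the alternatives, whose lowest was 0.0118). The call was likewise lost without any one of the 3 Col-0 arrays of stage 1.05, with log2 changes from -1.82 to -1.60, and without Col-0 at stage 1.14 replicate 1 or 3. Signals of SAG29 were under the offset of 16 on 4 of the 12 arrays, where differences between arrays cannot be read.

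Among root markers, 2 of 8 had a probe set listed with exactly 1 gene, and neither was at 0. Their summed signal was 67.2 to 367.8 in SPH1 RNAi and 35.9 to 45.5 in Col-0 at stage 1.14, and 310.4 to 554.1 in SPH1 RNAi and 350.5 to 587.1 in Col-0 at stage 1.05. PYK10, a beta-glucosidase abundant in roots and seedlings, had the larger signal of the pair on 9 of the 12 arrays, and EXPA7 had it on the 3 Col-0 arrays of stage 1.14. In Col-0 PYK10 was lower at stage 1.14, as SAG29 was. EXPA7, too low to test, was not, with means of 23.3 at stage 1.14 and 19.9 at stage 1.05 in Col-0. PYK10 had 355.2, 39.4 and 61.3 in SPH1 RNAi and 21.4, 16.3 and 14.2 in Col-0 at stage 1.14, and 530.6, 288.4 and 382.2 in SPH1 RNAi and 568.4, 339.4 and 468.5 in Col-0 at stage 1.05. Its genotype difference was 1.82 ± 0.53 SE at stage 1.14 and -0.20 ± 0.53 at stage 1.05, and its interaction was 2.02 ± 0.74 (limma adjusted p = 0.0593, 0.875 and 0.155). All 3 values had the sign of the SAG29 values. With stage PYK10 had log2 changes of -1.79 in SPH1 RNAi, where the SAG29 value was 0.39, and -3.81 in Col-0, where the SAG29 value was -2.20. The part of this marker list in the result was not tested. In rosette leaves as sampled, fewer cells of a type and less RNA per cell cannot be told apart.

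**Figure D1:**
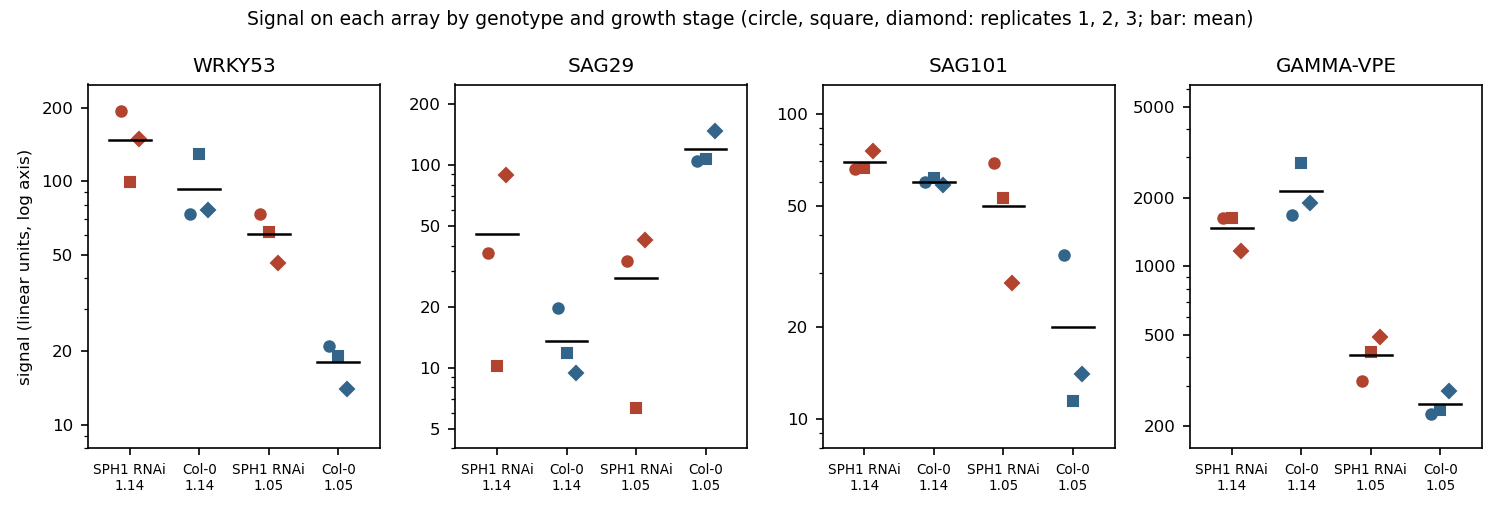
Signal (linear units on a log axis) of WRKY53, SAG29, SAG101 and GAMMA-VPE on each of the 12 arrays, by genotype and growth stage; circles, squares and diamonds are replicates 1, 2 and 3, and bars are group means. WRKY53, SAG101 and GAMMA-VPE are lowest in Col-0 at stage 1.05, where SAG29 is highest, at 104.9 to 147.2.

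SAG29 is left out of the counts that follow, because it passed the filter only through young Col-0 leaves, so they are over WRKY53, SAG101 and GAMMA-VPE. In SPH1 RNAi against Col-0 at stage 1.14, 0 of the 3 genes passed in limma, where 6.76% of all tested probe sets did (4.7% higher, 2.06% lower). An unadjusted p under 0.05 was found for 2 of the 3 (WRKY53 and GAMMA-VPE), and for 3087 of the 13263 tested probe sets. At stage 1.05, 1 of the 3 passed (WRKY53, higher), against 5.33% of all, with 4.57% higher and 0.762% lower. With stage in SPH1 RNAi, 2 of the 3 passed, both higher, against 10.2% of all, with 5.78% higher and 4.46% lower. In Col-0 all 3 passed, all higher, where 44.6% of all tested probe sets passed, 23.7% higher and 21% lower. For the interaction 0 of the 3 passed in limma, against 3.36% of all, with 1.48% above and 1.88% below 0. Its unadjusted p was under 0.05 for 1 of the 3 (GAMMA-VPE), and for 2632 of the 13263 tested probe sets. These comparisons share arrays in pairs, so their values stand side by side and were not correlated with one another. The median log2 change of all tested probe sets lay between -0.022 and 0.038 in the 5 comparisons.

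Groups without overlap were common on these arrays. SPH1 RNAi and Col-0 did not overlap in 2 of these 3 genes at stage 1.14, against 28.2% of all tested probe sets, and in 2 of the 3 at stage 1.05, against 27.6%. The stages did not overlap in 2 of the 3 genes in SPH1 RNAi, against 29.6% of all, and in all 3 in Col-0, against 58.6%.

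**Figure D2:**
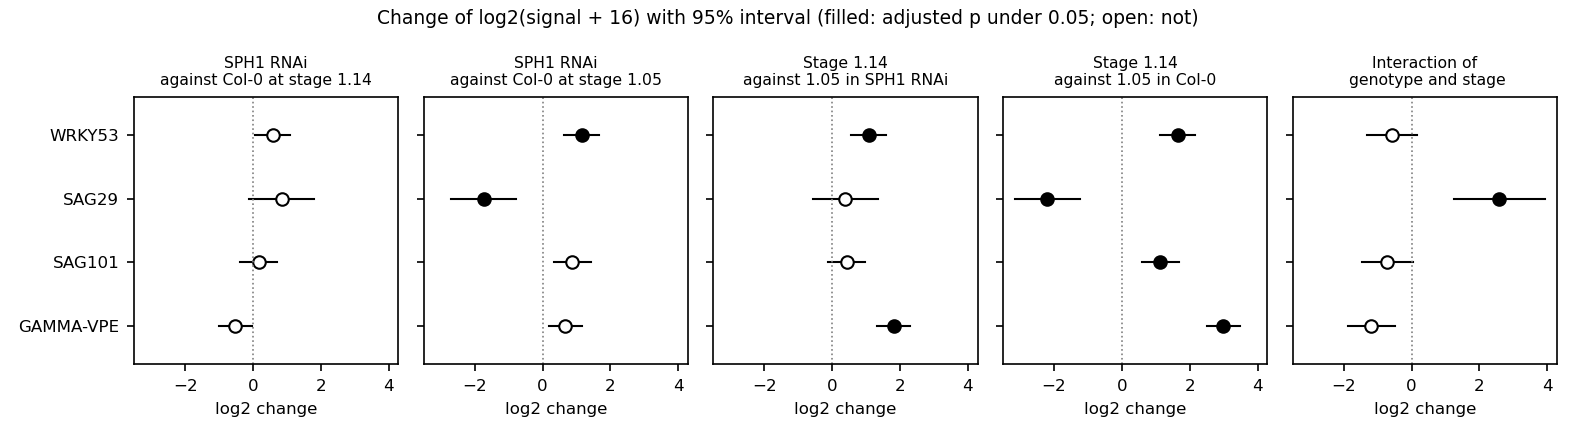
Change of log2(signal + 16) with its 95% interval from limma for the 4 genes in 5 comparisons; filled points had an adjusted p under 0.05. SAG29 lies on the opposite side of 0 from the other 3 genes at stage 1.05, with stage in Col-0 and in the interaction, where its value is 2.59.

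The genes of the wider pathway were taken from lists chosen with earlier results of these data known. Of their 198 genes, 48 have a probe set listed with exactly 1 gene, the only kind used here, and 32 of these were tested. Among the 4 vacuolar processing enzymes, GAMMA-VPE and BETA-VPE were tested, and ALPHA-VPE and DELTA-VPE had signals of 5.1 to 25.6 and 6.0 to 21.7, too low to test. BETA-VPE, best known from seeds, did not pass in any comparison, with 0.67 ± 0.32 SE for the stage change in SPH1 RNAi and 0.77 ± 0.32 in Col-0 (limma adjusted p = 0.191 and 0.0682). Whether the 2 enzymes differ in their changes was not tested.

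Of the 21 genes listed as vacuolar proteases, nucleases and their inhibitors 5 were tested. With stage, 3 of the 5 rose in SPH1 RNAi and 4 of the 5 in Col-0, against 5.78% and 23.7% of all tested probe sets that were higher, with median log2 changes of 0.77 and 1.19, against 0.02 and 0.021 over all tested probe sets. AT4G01610 rose by 1.34 ± 0.25 SE in SPH1 RNAi and by 2.44 ± 0.25 in Col-0 (limma adjusted p = 0.00812 and 1.81e-05). AT1G02305 rose by 0.53 ± 0.15 and 1.19 ± 0.15, and the protease inhibitor SERPIN1 by 0.77 ± 0.20 and 0.85 ± 0.20. AT1G02300 passed in Col-0 (1.85 ± 0.33) and not in SPH1 RNAi (1.13 ± 0.33, adjusted p = 0.0501). The aspartic proteinase PASPA1 did not pass, with 0.24 ± 0.16 in SPH1 RNAi and 0.36 ± 0.16 in Col-0. The SPH1 RNAi count was 1 without replicate 1 of stage 1.05 or replicate 2 of stage 1.14.

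Between the genotypes this protease list had 0 of 5 past the threshold at stage 1.14 and 1 of 5 at stage 1.05, where 4.57% of all tested probe sets were higher. AT4G01610 had signals of 182.9, 239.8 and 387.5 in SPH1 RNAi at stage 1.05, against 95.3, 137.9 and 146.6 in Col-0. The genotypes did not overlap, which held for 27.6% of all tested probe sets at this stage. The gene rose by 0.96 ± 0.25 SE (limma adjusted p = 0.0462). It was lost in 7 of the 12 fits without 1 array. At stage 1.14 none had an unadjusted p under 0.05, against 3087 of the 13263 tested probe sets. The smallest p were those of AT1G02305 (-0.28 ± 0.15, adjusted p = 0.283) and AT1G02300 (-0.23 ± 0.33). At stage 1.05 AT1G02305 came next, at 0.38 ± 0.15 (adjusted p = 0.178). No interaction passed in this list, against 3.36% of all tested probe sets. The smallest p were those of AT1G02305 (-0.65 ± 0.21, limma adjusted p = 0.107) and AT4G01610 (-1.10 ± 0.36, adjusted p = 0.112). Both were under 0.05 unadjusted in limma, at 0.0085 and 0.0093, as were 2632 of the 13263 tested probe sets.

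Autophagy genes rose with stage in Col-0 without exception among those tested. Of 23 listed genes 11 were tested, 9 of them ATG8 genes, which encode the small ubiquitin-like proteins that mark autophagosome membranes. In SPH1 RNAi 4 of 11 rose with stage, against 5.78% of all tested probe sets, at a median log2 change of 0.57, against 0.02 over all. In Col-0 11 of 11 rose, against 23.7% of all, at a median of 0.85, against 0.021. The 5 steepest in Col-0 were ATG8E (2.24 ± 0.44 SE), ATG8I (1.63 ± 0.16), ATG8F (1.37 ± 0.14), ATG8D (1.31 ± 0.17) and ATG8A (1.30 ± 0.15), with limma adjusted p from 1.05e-05 to 0.00150. In SPH1 RNAi ATG8A (0.70 ± 0.15), ATG8I (0.65 ± 0.16), ATG8F (0.63 ± 0.14) and ATG8H (0.49 ± 0.14) rose. The SPH1 RNAi count was 1 without replicate 1 of stage 1.05 and 2 without replicate 3 of stage 1.14, and 0 when only the 6 SPH1 RNAi arrays were fitted. The Col-0 count was 11 in each of the 12 fits without 1 array.

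**Figure D3:**
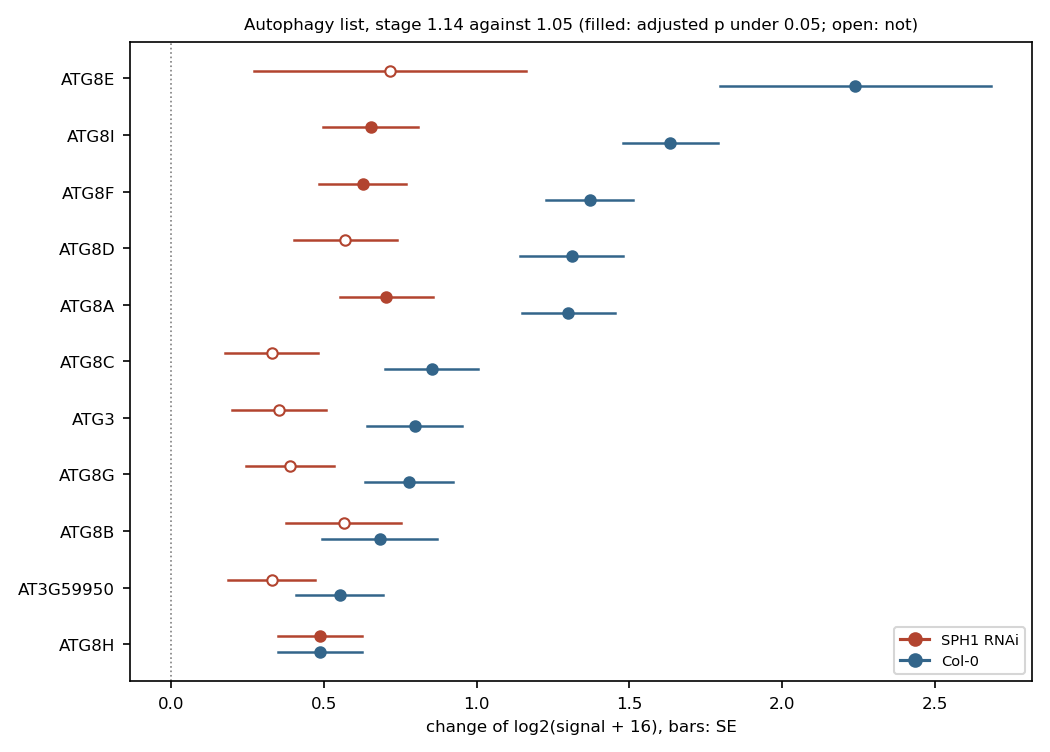
Change of log2(signal + 16) from stage 1.05 to stage 1.14, with SE bars, for the 11 tested genes of the autophagy list in SPH1 RNAi and in Col-0; filled points had an adjusted p under 0.05. All 11 Col-0 points are filled and 4 of the SPH1 RNAi points are.

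At stage 1.05, 3 of the 11 autophagy genes were higher in SPH1 RNAi than in Col-0, against 4.57% of all tested probe sets, at a list median of 0.41, against 0.037 over all. At stage 1.14 none passed, at a median of -0.21, against 0.038. ATG8D rose by 0.86 ± 0.17 SE, ATG8A by 0.79 ± 0.15 and ATG8I by 0.72 ± 0.16 at stage 1.05 (limma adjusted p from 0.00897 to 0.0170). ATG8A had signals of 154.9, 174.2 and 160.9 in SPH1 RNAi, against 108.2, 75.3 and 83.1 in Col-0. ATG8I had 339.6, 456.2 and 452.3 in SPH1 RNAi, against 228.7, 254.7 and 250.0 in Col-0. Neither gene overlapped between the genotypes, which held for 27.6% of all tested probe sets at stage 1.05. At stage 1.14, 1 of 11 had an unadjusted p under 0.05, against 3087 of the 13263 tested probe sets. The smallest p belonged to ATG8F (-0.33 ± 0.14, adjusted p = 0.177) and ATG8I (-0.26 ± 0.16, adjusted p = 0.338). The stage 1.05 count was 1 without SPH1 RNAi replicate 2 and 0 without Col-0 replicate 2.

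ATG8I alone of the 11 tested autophagy genes passed the interaction test, with a smaller stage change in SPH1 RNAi (-0.98 ± 0.22 SE, limma adjusted p = 0.0345). Of all tested probe sets 3.36% passed, 1.88% below 0. The list median of the interaction was -0.52, against -0.022 over all. Next by p was ATG8F (-0.74 ± 0.20, adjusted p = 0.0655). The count of 1 became 3 and 2 when the first SPH1 RNAi replicate of stage 1.05 and of stage 1.14 was left out in turn. It was 0 in 9 of the other fits without 1 array, and 0 after quantile normalization.

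SAG101 and AT3G48080 were the tested genes among 20 listed for EDS1 and salicylic acid signalling. AT3G48080 had signals of 133.4, 49.6 and 47.9 in SPH1 RNAi and 102.1, 61.6 and 84.2 in Col-0 at stage 1.14, and 32.4, 30.1 and 36.1 in SPH1 RNAi and 19.2, 13.8 and 7.8 in Col-0 at stage 1.05. In Col-0 it rose by 1.73 ± 0.29 SE with stage (limma adjusted p = 0.000442). In SPH1 RNAi its stage change was 0.81 ± 0.29 (adjusted p = 0.0907), and its genotype difference at stage 1.05 was 0.74 ± 0.29 (adjusted p = 0.171), with -0.18 ± 0.29 at stage 1.14 and an interaction of -0.92 ± 0.41. EIN3, a transcription factor of ethylene signalling, was the only tested gene of 12 regulators of WRKY53 and leaf ageing. It rose with stage by 0.69 ± 0.17 in SPH1 RNAi and by 1.5 ± 0.17 in Col-0 (limma adjusted p = 0.0291 and 3.81e-05). Its genotype difference was -0.38 ± 0.17 at stage 1.14 and 0.43 ± 0.17 at stage 1.05, and neither passed.

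SAG29 belongs to the SWEET sugar transporters. Of these 17 genes, 16 had a probe set listed with exactly 1 gene and 6 were tested, 5 of them other than SAG29. The counts and medians are over these 5. At stage 1.05 SWEET17, a fructose transporter of the vacuole membrane, was the 1 of 5 that fell in SPH1 RNAi (-0.91 ± 0.18 SE, limma adjusted p = 0.0103), where 0.762% of all tested probe sets were lower. SWEET17 had signals of 208.8, 211.4 and 288.6 in SPH1 RNAi, against 517.3, 364.3 and 489.9 in Col-0. These did not overlap, which held for 27.6% of all tested probe sets at this stage. At stage 1.14 none of the 5 passed in limma, and 0 had an unadjusted p under 0.05, against 3087 of the 13263 tested probe sets. The smallest p were those of SWEET17 (-0.37 ± 0.18) and SWEET13 (-0.93 ± 0.47). The list medians were -0.17 at stage 1.14 and -0.43 at stage 1.05. The stage 1.05 count of 1 was 0 without SPH1 RNAi replicate 2 or Col-0 replicate 3 of that stage, and 2 without SPH1 RNAi replicate 1.

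With stage, 0 of the 5 SWEET genes passed in SPH1 RNAi in limma (median -0.36). There 1 had an unadjusted p under 0.05 (SWEET2, -0.76 ± 0.32), against 3730 of the 13263 tested probe sets. In Col-0 3 fell and 1 rose (median -0.76), against 21% of all tested probe sets that were lower and 23.7% that were higher. SWEET2 fell by 1.73 on the log2 scale, SWEET17 by 0.89 and SWEET1 by 0.76 in Col-0, while SWEET13 rose by 1.42 ± 0.47 SE (limma adjusted p from 0.000880 to 0.0469). The rise of SWEET13 was lost without Col-0 replicates 1 or 2 of stage 1.05 or replicate 2 of stage 1.14. The count of 3 falling genes was 2 without Col-0 replicate 2 or 3 of stage 1.05 or any 1 Col-0 array of stage 1.14. It was also 2 without SPH1 RNAi replicate 2 of stage 1.05 or replicate 3 of stage 1.14. With an offset of 4, after quantile normalization and without the filter it was 2 as well. Without the filter the rise of SWEET13 was also lost. SWEET2 had 336.0 on SPH1 RNAi replicate 1 of stage 1.05, 105.1 and 119.7 on replicates 2 and 3, and 245.4, 304.2 and 352.9 in Col-0 at that stage. Its genotype difference at stage 1.05 was -0.81 ± 0.32 (adjusted p = 0.178).

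**Figure D4:**
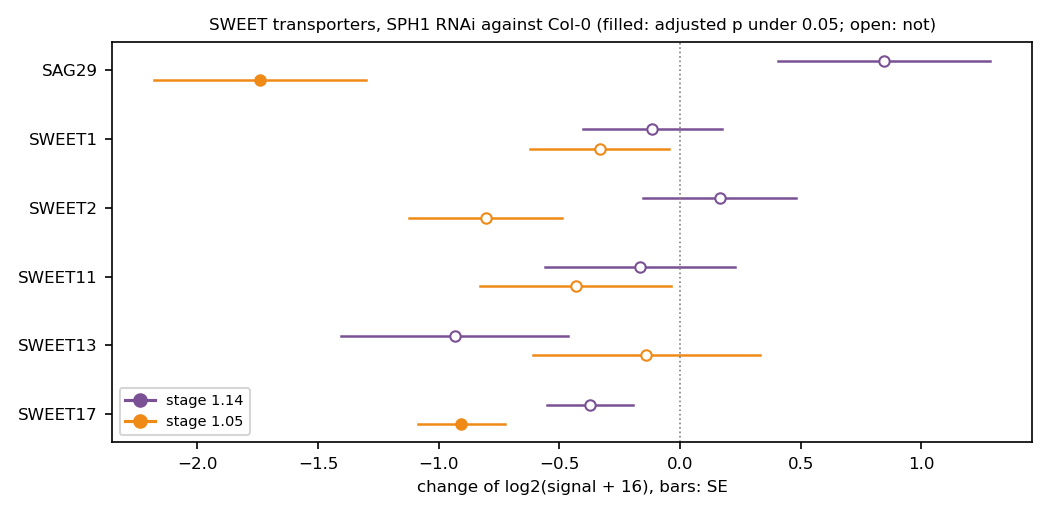
SPH1 RNAi against Col-0 for the 6 tested SWEET transporters, as change of log2(signal + 16) with SE bars, at stage 1.14 and stage 1.05; filled points had an adjusted p under 0.05. SAG29 and SWEET17 are filled at stage 1.05, and none is filled at stage 1.14.

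Of the 11 genes listed for chlorophyll breakdown 2 were tested. NOL, a chlorophyll b reductase, fell in SPH1 RNAi by 0.57 at stage 1.14 and by 0.73 at stage 1.05 (log2, limma adjusted p = 0.0215 and 0.00444), and with stage by 0.35 in Col-0 (adjusted p = 0.0409). AT1G44000 fell with stage by 1.14 in SPH1 RNAi and by 1.31 in Col-0 (adjusted p = 0.0326 and 0.00345). Of all tested probe sets 2.06% were lower in SPH1 RNAi at stage 1.14 and 0.762% at stage 1.05. With stage 4.46% were lower in SPH1 RNAi and 21% in Col-0. No interaction passed in this list, against 3.36% of all tested probe sets. No gene of the metacaspase, NAC factor and nitrogen remobilisation lists has a probe set listed with exactly 1 gene, so these lists were not analysed. Of the 22 senescence-associated genes only SAG29 and SAG101 have such a probe set. The seed storage marker PAP85 had signals of 6.5 to 19.4, and no flower marker has a probe set listed with exactly 1 gene.

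The genes whose signal followed each member most closely over the 12 arrays were found by Pearson's r on the log2 scale among 7094 tested probe sets with 1 gene. These values are descriptions, and the arrays share their group means. For WRKY53 the 5 were AT1G03290, AT1G72700, AT3G09830, AT5G23850 and AT4G30600, at r of 0.960 to 0.969. SAG101 was followed by AT4G19160, AT5G38210, AT4G18250, AT1G76970 and AT3G10930, at 0.938 to 0.960. AT4G18250 averaged 101.4 in SPH1 RNAi and 73.9 in Col-0 at stage 1.14, and 41.5 in SPH1 RNAi and 7.2 in Col-0 at stage 1.05. GAMMA-VPE was followed by the tetraspanin TET3 (0.980), AT1G02305 of the protease list (0.979), AT5G39410, AT5G27280 and the glucosinolate transporter GTR2 (0.977 each).

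SAG29 had the loosest followers, led by the asparaginase ASPGB1 at 0.929, with the succinate dehydrogenase subunit SDH2-2, AT3G57890, the methionine aminopeptidase MAP1C and AT5G12980 at 0.877 to 0.884. ASPGB1 averaged 44.3 in SPH1 RNAi and 27.4 in Col-0 at stage 1.14, and 41.0 in SPH1 RNAi and 69.5 in Col-0 at stage 1.05. Among the members themselves r was 0.88 between WRKY53 and SAG101, 0.81 between WRKY53 and GAMMA-VPE and 0.69 between SAG101 and GAMMA-VPE. SAG29 stood at -0.56, -0.65 and -0.64 to WRKY53, SAG101 and GAMMA-VPE. With the group means removed, the 6 values lay between -0.48 and 0.41, over 12 arrays.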

How the data were processed

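RNA of 12 pools of 40 plants was measured on ATH1 arrays, 3 for each of 4 groups. The table the authors deposited holds 1 linear intensity per probe set and array, and no source here names the software that made it. Every array had a 2% trimmed mean of 100.01, so the values had been scaled together before deposit. From the deposited intensities, log2(signal + 16) was computed here. After 64 control probe sets and those with a mean signal under 32 were left out, 13263 of 22810 were fitted with limma 3.58.1 (R 4.3.3) in 1 model of 4 groups, with an intensity trend, and p-values were adjusted by Benjamini-Hochberg over all of them, with a threshold of 0.05. Fold changes are on the scale of signal plus 16 and understate changes of low signals. The model was run on simulated data with 100 planted changes each of 1 and of 2 log2 units per comparison. For the interaction it found 47 of 100 of size 1 and 89 of 100 of size 2. In the other comparisons it found 67 to 74 of size 1 and 94 to 98 of size 2. False calls made up 1.74% to 6.15% of the calls. The number of arrays limits the precision. Probe sets were named from the platform's annotation, with gene names from the TAIR10.1 RefSeq table, and no coordinates or sequences were used. The members and lists were chosen with earlier results of these data known. Named are the 4 members, up to 5 passing genes of each list with the largest change (where fewer than 2 passed, the 2 with the smallest p) and the 5 genes most alike to each member. Alternatives were other offsets and filters, quantile normalization, the replicate number as a block, fits of 2 groups, and each array left out.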

Additional observations from a re-analysis of the deposited data

Results flagged for a closer look

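SAG29 is listed because its interaction of genotype and stage passed the threshold, which is given as a description. The gene passed the filter on low signals only through Col-0 at stage 1.05, the group in which it is highest, and its direction was known when it was chosen. The interaction of genotype and stage was 2.59 on the log2 scale (limma adjusted p = 0.0425, and 0.0174 to 0.101 over its alternatives). SAG29 signals were 36.7, 10.2 and 89.7 in SPH1 RNAi and 19.6, 11.8 and 9.4 in Col-0 at stage 1.14, and 33.7, 6.3 and 42.8 in SPH1 RNAi and 104.9, 107.1 and 147.2 in Col-0 at stage 1.05. The call passed under 4 of 17 alternatives.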

How the results depend on the processing

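Of 20 member results, 13 kept their direction and side of the threshold under every alternative run, and 7 did not; the cause was not tested. With an offset of 64, WRKY53 at stage 1.05 was 0.597 (adjusted p = 0.0634). With an offset of 4, SAG29 was -2.218 at stage 1.05 and 3.364 in the interaction, and without the filter it was -1.740 and 2.586, with adjusted p from 0.0599 to 0.0864 in these 4 cases. Quantile normalization gave 2.509 for the SAG29 interaction (adjusted p = 0.0714). Interaction calls numbered 236 without the filter and 287 after quantile normalization, against 446. With only the arrays of the 2 groups, 154 probe sets passed at stage 1.14, against 896, and 462 with stage in SPH1 RNAi, against 1358, where WRKY53 was 1.070 (adjusted p = 0.0510). With a mean signal of at least 100, 3568 passed with stage in Col-0, against 5919, and WRKY53, SAG29 and SAG101 were not tested. Whether replicate numbers pair the arrays was not settled (correlations of same-numbered deviations -0.248 to 0.49). Of 6 arrays, 5 correlated best with their own number between genotypes at stage 1.05 and 3 at stage 1.14. With stage it was 0 of 6 in SPH1 RNAi and 4 of 6 in Col-0. The replicate block moved SAG101 at stage 1.05 past the threshold (0.879, adjusted p = 0.0462) and changed no other member call. With each array left out in turn, calls ranged from 365 to 1060 at stage 1.05, 376 to 1102 at stage 1.14, 669 to 1501 with stage in SPH1 RNAi and 119 to 705 in the interaction. Log2 changes ranged from 1.034 to 1.301 for WRKY53, -2.014 to -1.314 for SAG29 and 0.67 to 1.15 for SAG101 at stage 1.05. With stage in SPH1 RNAi, WRKY53 ran from 0.867 to 1.302 and was lost without replicate 3 of stage 1.05 (0.926), and SAG29 ran from -0.115 to 0.891, reversing to -0.038 without replicate 2 of stage 1.05 and to -0.115 without replicate 3 of stage 1.14. The interaction ran from 2.083 to 3.089 for SAG29 and from -1.354 to -0.958 for GAMMA-VPE. List counts under these alternatives, and counts without SAG29, were chosen after seeing the data. Signals were under the offset of 16 on 4 of 12 arrays for SAG29, 2 for SAG101 and 1 for WRKY53, which limits their values.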

Other observations

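WRKY6 and WRKY22, the other WRKY factors of the list with a probe set listed with exactly 1 gene, lay below the minimum mean signal and were not tested. The signal of WRKY6 was 70.2, 49.5 and 47.4 in SPH1 RNAi and 31.8, 38.8 and 31.2 in Col-0 at stage 1.14, and 10.4, 16.6 and 25.4 in SPH1 RNAi and 3.0, 22.7 and 8.4 in Col-0 at stage 1.05. WRKY22 had 37.6, 37.5 and 30.4 in SPH1 RNAi and 29.9, 19.1 and 31.4 in Col-0 at stage 1.14, and 29.4, 28.6 and 34.6 in SPH1 RNAi and 27.8, 25.1 and 31.4 in Col-0 at stage 1.05. One Col-0 array of stage 1.14, replicate 2, held the highest signal of several genes named above. On it BETA-VPE had 192.2, against 56.0 and 59.6 on replicates 1 and 3, SWEET13 had 423.1, against 107.1 and 125.9, and GAMMA-VPE had 2844.6, against 1683.7 and 1888.8.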
